A study of Mus musculus with 9 samples.

Results

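The BTG and Tob genes encode a small family of antiproliferative proteins, and 7 genes of this system were followed here: Btg1, Btg2, Btg3, Tob1 and Tob2, and Cnot7 and Cnot8, which encode the deadenylases that BTG and Tob proteins bind. They were taken by symbol from the 35006 gene symbols of the count tables, and all 7 were found and passed the filter on low counts. C57BL/6J mice gave the cells, stem cells of the hair follicle bulge that were sorted for CD34 and alpha6 integrin. The libraries came from mice on dietary restriction (DR, 4 libraries), fed each day 70% of the amount eaten by weight- and gender-matched mice with free access to food, and from such freely fed mice (AL, ad libitum, 5 libraries). All mice were housed singly. Cells were pooled from 3 mice per group, the labels do not say whether each library had its own pool, and p-values therefore measure the spread between these libraries, which may be partly technical. The labels used here give no age, hair cycle stage or irradiation for these animals, and name 2 animal facilities without assigning libraries to them, so a facility effect was not tested.

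As background, BTG and Tob proteins share a conserved amino-terminal domain that docks onto the CAF1-type deadenylases CNOT7 and CNOT8, catalytic subunits of the CCR4-NOT complex. By bringing that complex to messenger RNAs, in part through the poly(A)-binding protein that Tob proteins also contact, they speed the shortening of poly(A) tails and the decay of the transcripts. Forced expression of these proteins slows entry into S phase, and Btg1 and Tob1 are known for holding lymphocytes at rest. Btg2 is a classical p53 target and also an immediate early gene. The title of the series places the diet comparison in a study of stem cell quiescence, and these genes are candidates for a brake on division.

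The promoters of the 4 most abundant members are shown because the factors known to act on this family differ between them. They are the 250 bases before the RefSeq start site (GRCm38.p6 build), 5′ to 3′ on the gene's strand, with the motif matches found in capitals.
Btg1, chr10:96616751-96617000, plus strand: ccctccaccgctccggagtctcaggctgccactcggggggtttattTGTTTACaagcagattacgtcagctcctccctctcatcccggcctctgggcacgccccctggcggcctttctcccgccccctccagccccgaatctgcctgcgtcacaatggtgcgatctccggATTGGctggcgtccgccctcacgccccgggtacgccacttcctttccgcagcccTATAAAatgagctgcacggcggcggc
Btg2, chr1:134079156-134079405, minus strand: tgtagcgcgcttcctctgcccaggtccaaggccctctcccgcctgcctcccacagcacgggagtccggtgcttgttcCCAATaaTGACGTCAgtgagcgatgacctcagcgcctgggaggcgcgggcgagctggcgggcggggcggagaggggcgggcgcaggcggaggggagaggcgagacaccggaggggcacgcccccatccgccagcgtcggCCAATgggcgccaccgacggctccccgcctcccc
Tob1, chr11:94211204-94211453, plus strand: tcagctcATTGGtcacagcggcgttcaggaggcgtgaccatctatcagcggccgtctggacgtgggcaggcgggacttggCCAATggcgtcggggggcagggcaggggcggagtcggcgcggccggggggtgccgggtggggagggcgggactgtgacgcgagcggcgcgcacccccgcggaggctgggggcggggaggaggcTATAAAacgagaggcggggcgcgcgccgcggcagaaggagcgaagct
Tob2, chr15:81858327-81858576, minus strand: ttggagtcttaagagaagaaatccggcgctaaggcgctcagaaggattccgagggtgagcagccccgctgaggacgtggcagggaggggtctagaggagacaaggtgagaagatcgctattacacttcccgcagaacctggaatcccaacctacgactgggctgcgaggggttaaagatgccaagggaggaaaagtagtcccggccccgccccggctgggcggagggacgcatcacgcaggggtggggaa

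On either strand, 9 motifs were searched, and 6 of the 7 members had 1 or more entries in the RefSeq table, all but Cnot7. Cnot7 was therefore not searched, and the motif results cover the other 6 members only. The serum response element was searched as 1 fixed sequence of 10 letters, so variants of it were not covered. A FoxO site (GTAAACA) was found on the opposite strand of the Btg1 promoter, from base -204 to -198 relative to the start site, and 3.17% of all 32851 promoters of that length hold one. A cAMP response element (TGACGTCA) lay from -166 to -159 in the Btg2 promoter, and 1.55% of all promoters hold one. CCAAT boxes (CCAAT) were found in Btg1, Btg2, Btg3 and Tob1 (33.8% of all promoters), and a TATA box (TATAAA) in Btg1 and Tob1 (12.4%). None of these was found in the Tob2 promoter, and no match overlapped one of another motif. No member had a match for the AP-1 site (TGANTCA, 6.75% of all promoters), the E-box CACGTG (6.02%), the serum response element (0.0609%), the p53 half-site (7.13%) or the glucocorticoid receptor palindrome (0.00913%), which says only that these letters are not in this window.

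Library totals were 27715354 to 32426255 gene counts in DR and 26119459 to 33559312 in AL, and the first principal component, with 59.1% of the variance, parted the diets. AL replicate 5 stood apart from the other libraries on the second component (12.0% of the variance). Bulge markers were abundant in every library, and their summed level was 20979 to 22466 CPM in DR and 27547 to 38653 CPM in AL, with 5 of 10 lower and 1 higher in DR, where 40.7% of all tested genes passed in either direction. Of 6 fibroblast markers 4 were tested, with 2 lower and 1 higher in DR (summed 19.8 to 40.5 CPM in DR, 73.99 to 123 CPM in AL). Immune markers summed to 19.5 to 56.5 CPM in DR and 12.7 to 34.3 CPM in AL, and endothelial markers to 4.97 to 39.4 and 1.02 to 21.0 CPM, with none past the test. Suprabasal markers summed to 1436 to 4559 CPM in DR and 1348 to 4054 CPM in AL. Of 4 tested sebocyte markers 2 were lower and 1 higher in DR (summed 122 to 219 CPM in DR, 83.6 to 135 CPM in AL). Of 5 tested matrix and inner root sheath markers 1, Krt28, was lower in DR (summed 122 to 195 CPM in DR, 156 to 186 CPM in AL). Melanocyte markers summed to 124 to 176 CPM in DR and 111 to 230.4 CPM in AL, with 2 of 4 lower in DR. Mitf held most of each sum (139 ± 24.7 CPM in DR, 149 ± 50.8 CPM in AL), and neither Mitf nor Pmel passed the test. The 2 lower were Dct (1.60 ± 0.483 CPM in DR, 7.24 ± 4.14 CPM in AL) and Tyrp1 (0.220 ± 0.0895 CPM in DR, 0.997 ± 0.743 CPM in AL). No listed marker was at 0 in all libraries, and the part of such cells in the results on the family was not tested.

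In these sorted bulge cells the 7 genes stood at very unequal levels. The part of cell preparation and sorting in these levels was not tested. Levels are given in CPM, gene counts scaled to a common library size, and here per kilobase of annotated exon. Btg2 led with 1273 ± 388 CPM per kilobase in DR and 1133 ± 263 in AL (SD, n = 4 and 5), followed by Tob1 with 392 ± 120.0 in DR and 293 ± 108 in AL. Btg1 (62.4 ± 10.2 in DR, 68.9 ± 17.6 in AL) and Tob2 (37.6 ± 7.88 in DR, 46.6 ± 12.4 in AL) formed a middle tier. Cnot8 (18.6 ± 1.33 in DR, 15.7 ± 0.978 in AL) and Cnot7 (11.1 ± 0.656 in DR, 11.2 ± 0.871 in AL) were lower, and Btg3 was lowest (0.540 ± 0.0996 in DR, 0.456 ± 0.126 in AL). With this length, each gene was above the next in 9 of 9 libraries. The ranges over libraries overlapped only between Btg1 and Tob2. With the median or the longest coding transcript as the length, Cnot7 came above Cnot8, so the order of these 2 depends on the length used. The means of Btg1 and Tob2 also came close, at 123 and 119 CPM per kilobase with the median coding transcript. With the longest they were 69.6 and 68.4. The counts of libraries above were made with exon length only. Btg2 made up 61.7% to 75.3% of the reads of the 7 genes. Btg4, a family member known from oocytes, had 0 counts in every library, which allows a level of up to 0.0894 to 0.115 CPM for counting error alone.

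Of the 7 genes 1 passed the test between the diets, Cnot8, against 40.7% of all 15447 tested genes in either direction. It is 1 of 7 higher in DR, where 19.0% of all tested genes were higher, and 0 of 7 lower, where 21.7% were lower. The 5 BTG and Tob genes missed the threshold, with log2 fold changes of DR over AL between -0.31 and 0.42. Adjusted p-values are those of edgeR's quasi-likelihood test with Benjamini-Hochberg adjustment over all tested genes, and the threshold was 0.05. The median of the 7 log2 fold changes was 0.17, beside a median of -0.02 over all tested genes. In bulk RNA, fewer cells that express a gene and less RNA per cell cannot be told apart.

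**Figure D1:**
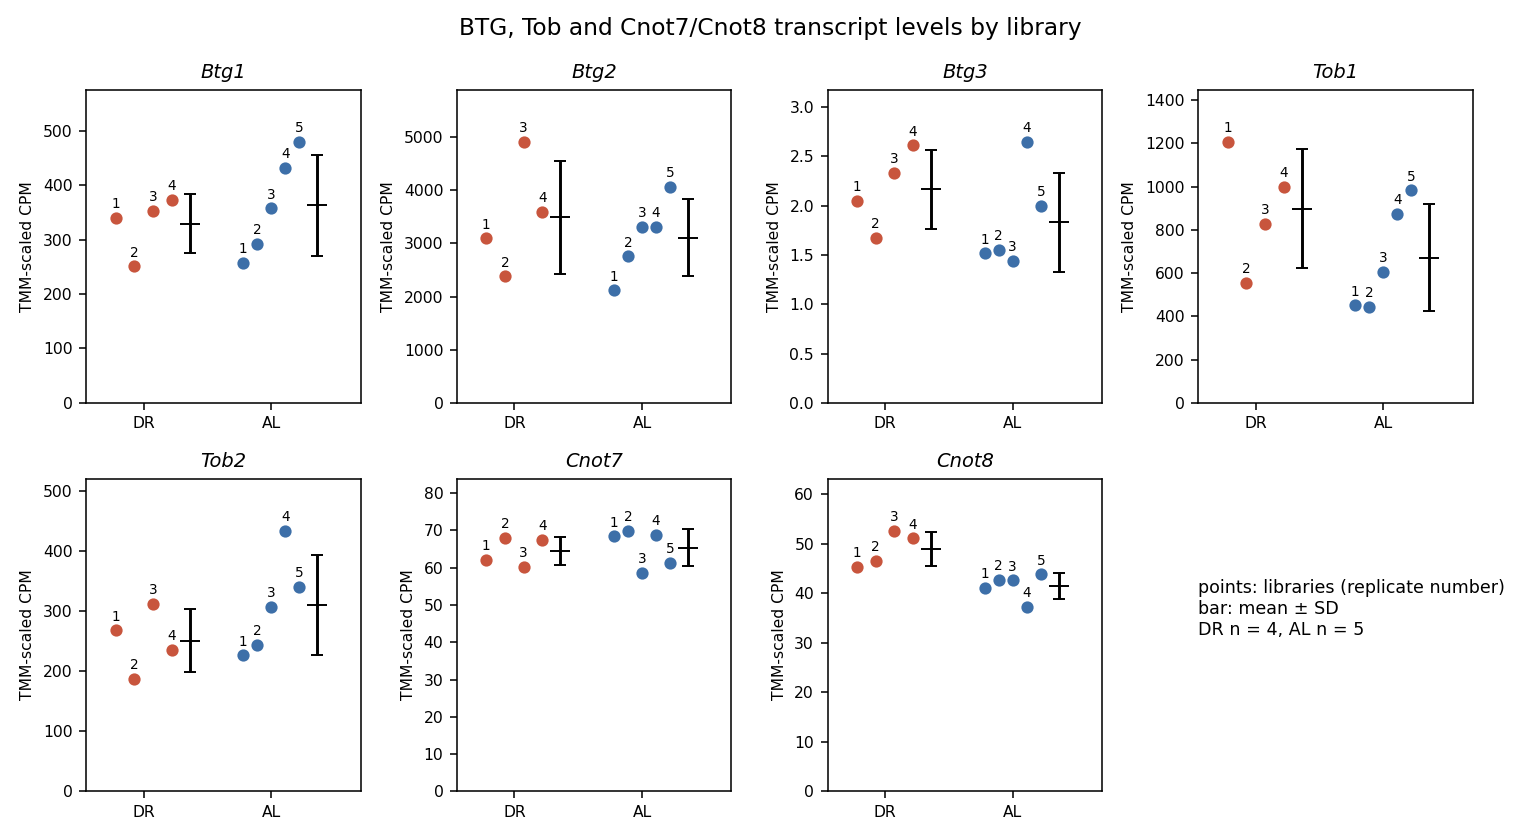
Levels in CPM (linear axes from 0) of the 7 genes in each library, DR left and AL right, with replicate numbers at the points and the mean ± SD beside them (n = 4 and 5). The diets do not overlap for Cnot8 (lowest DR 45.4, highest AL 43.8 CPM) and overlap for the other 6 genes.

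Btg2, the p53-responsive and immediate early member, had 3092, 2378, 4901 and 3594 CPM in DR replicates 1 to 4, against 2116, 2757, 3306, 3308 and 4057 CPM in AL replicates 1 to 5. The groups overlapped almost entirely, with DR replicate 3 as the highest library and AL replicate 1 as the lowest. Btg2 averaged 3491 ± 1064 CPM in DR and 3109 ± 723 CPM in AL (SD, n = 4 and 5). Its log2 fold change was 0.17 with an SE of 0.23 (edgeR adjusted p = 0.60). The 95% interval of the difference ran from 0.79-fold to 1.60-fold. Without DR replicate 3 the log2 fold change was -0.027.

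Btg1, known for keeping resting lymphocytes and neural stem cells out of cycle, had 340, 251, 353 and 373 CPM in DR replicates 1 to 4, against 257, 292, 358, 431 and 479 CPM in AL replicates 1 to 5. The highest DR library lay below AL replicates 4 and 5, and the groups overlapped otherwise. The log2 fold change was -0.14 (SE 0.19, edgeR adjusted p = 0.58), with a 95% interval from 0.68-fold to 1.21-fold. With 1 library left out it ran from -0.25 without AL replicate 1 to -0.024 without AL replicate 5. FoxO factors are known regulators of Btg1. Of their transcripts, Foxo3 rose to 295 ± 32.8 CPM in DR against 139 ± 29.5 CPM in AL (log2 fold change 1.09, edgeR adjusted p = 3.0e-04). Foxo1 rose by 0.99 and Foxo4 by 0.64 on the log2 scale. The part of FoxO factors in Btg1 levels was not tested. Trp53, which encodes the p53 protein, fell by 0.37 on the log2 scale (71.6 ± 6.56 CPM in DR, 92.4 ± 13.6 CPM in AL, edgeR adjusted p = 0.028). Leaving out any 1 of 6 libraries (DR replicates 1 to 3 and AL replicates 2 to 4) lost this call, with edgeR adjusted p-values of 0.053 to 0.081.

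Btg3, the remaining BTG gene, was near the lower end of detection, with 56 to 81 reads in each DR library and 42 to 77 in each AL library. Its levels were 2.05, 1.68, 2.33 and 2.61 CPM in DR replicates 1 to 4, against 1.52, 1.55, 1.44, 2.64 and 1.99 CPM in AL replicates 1 to 5. All DR libraries lay above the 3 lowest AL libraries, but AL replicate 4 was the highest of all. The log2 fold change was 0.24 (SE 0.23, edgeR adjusted p = 0.43; 95% interval 0.83-fold to 1.69-fold), and ran from 0.14 without DR replicate 4 to 0.41 without AL replicate 4. Of the 51-base stretches in its annotated transcripts, 30.7% also occur in transcripts of other genes, and its exons overlap those of Cxadr on the opposite strand, so its counts are uncertain where strand was not kept. Cxadr had 381 ± 44.4 CPM in DR and 304 ± 38.7 CPM in AL (log2 fold change 0.32, edgeR adjusted p = 0.0502), and the share of Btg3 reads from Cxadr was not tested.

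Tob1, whose protein binds SMADs and the ErbB2 receptor besides the deadenylase, had 1205, 556, 828 and 999.5 CPM in DR replicates 1 to 4, against 451, 443, 606, 875 and 983 CPM in AL replicates 1 to 5. DR replicates 1 and 4 were the highest libraries, but DR replicate 2 lay below 3 of the 5 AL libraries. Tob1 averaged 897 ± 275 CPM in DR and 671 ± 247 CPM in AL (SD, n = 4 and 5). Its log2 fold change was 0.42 with an SE of 0.28 (edgeR adjusted p = 0.26). The 95% interval, from 0.87-fold to 2.05-fold, was the widest of the 7 genes. With 1 library left out, the log2 fold change ran from 0.25 without DR replicate 1 (edgeR adjusted p = 0.54) to 0.60 without AL replicate 5 (adjusted p = 0.095).

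Tob2, the close paralog of Tob1, had 268, 187, 312 and 236 CPM in DR replicates 1 to 4, against 227, 244, 307, 434 and 340 CPM in AL replicates 1 to 5. The 2 highest libraries were AL and the lowest was DR replicate 2, with the rest intermixed. The log2 fold change was -0.31 (SE 0.20, edgeR adjusted p = 0.25; 95% interval 0.59-fold to 1.10-fold), and ran from -0.42 without DR replicate 3 to -0.16 without AL replicate 4.

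Cnot8, one of the paralogous CAF1-type deadenylases, rose to 48.9 ± 3.50 CPM in DR, against 41.5 ± 2.58 CPM in AL (SD, n = 4 and 5). The log2 fold change was 0.24 with an SE of 0.08 (edgeR adjusted p = 0.035; 95% interval 1.04-fold to 1.33-fold). It had 45.4, 46.5, 52.7 and 51.1 CPM in DR replicates 1 to 4, against 41.1, 42.7, 42.6, 37.2 and 43.8 CPM in AL replicates 1 to 5. All 4 DR libraries were above all 5 AL libraries, as was the case, in one direction or the other, for 32.9% of tested genes. The call was lost with upper-quartile scaling (log2 fold change 0.18, edgeR adjusted p = 0.096) and with library size only (0.17, adjusted p = 0.19). It was also lost without DR replicate 3 or 4 or AL replicate 1, 3 or 4 (adjusted p 0.057 to 0.087). The fit with no low-count filter and the replicate block lost it as well, so 9 of 18 alternative fits did not keep the call. Of the 51-base stretches in annotated Cnot8 transcripts, 7.71% also occur in Gm18860, and the part of these in the call was not tested.

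Cnot7, the other CAF1-type deadenylase, had 62.2, 67.9, 60.2 and 67.4 CPM in DR replicates 1 to 4, against 68.4, 69.9, 58.7, 68.7 and 61.3 CPM in AL replicates 1 to 5. The libraries were fully intermixed. The log2 fold change was -0.02 (SE 0.08, edgeR adjusted p = 0.85), and the 95% interval, from 0.87-fold to 1.12-fold, was narrow. Cnot7 exons overlap those of Zdhhc2 on the opposite strand, a gene at 16.8 ± 1.83 CPM in DR and 48.7 ± 2.78 CPM in AL, and the share of Cnot7 reads from Zdhhc2 was not tested.

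The 5 BTG and Tob genes varied more between libraries of 1 diet than the 2 deadenylase genes, and shared their lowest DR library. The highest over the lowest DR library was 2.06 for Btg2, 2.17 for Tob1, 1.49 for Btg1, 1.56 for Btg3 and 1.66 for Tob2. It was 1.13 for Cnot7 and 1.16 for Cnot8. Among AL libraries the same ratio was 1.92 for Btg2, 2.22 for Tob1, 1.86 for Btg1, 1.83 for Btg3 and 1.91 for Tob2, against 1.19 and 1.18 for Cnot7 and Cnot8. Btg3 had 42 to 81 reads per library, so its ratios include counting error. DR replicate 2 was the lowest DR library for 5 of the 5 genes, while the highest was DR replicate 4 for Btg1 and Btg3, DR replicate 3 for Btg2 and Tob2, and DR replicate 1 for Tob1. AL replicate 4 or 5 was the highest AL library for each of them, and AL replicate 1, 2 or 3 the lowest.

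**Figure D2:**
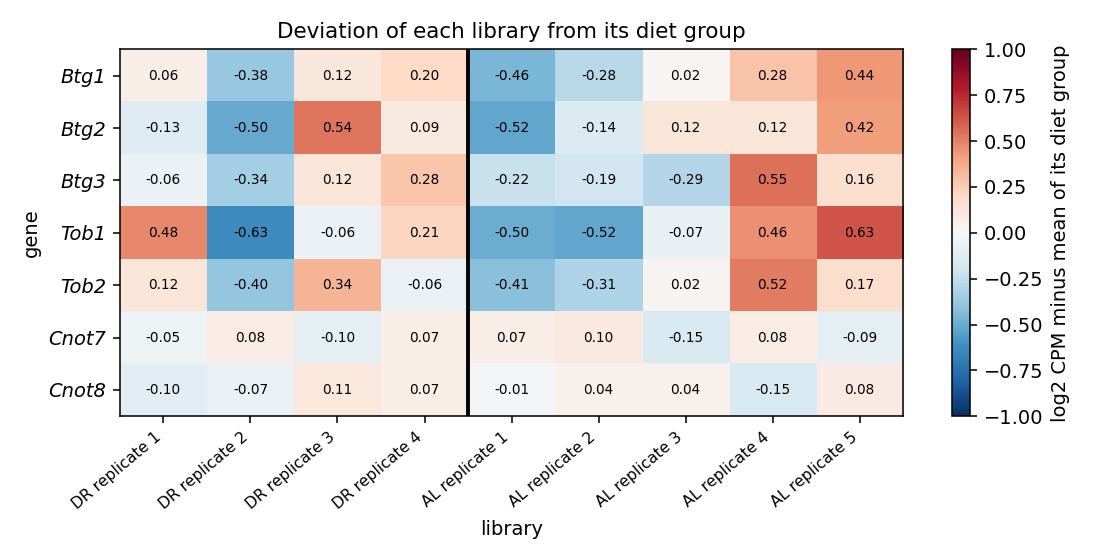
Deviation of each library's log2 CPM from the mean of its own diet group, genes down the page and libraries across, DR left of the black line and AL right of it. In DR replicate 2 all 5 BTG and Tob genes were below their group mean (by -0.34 for Btg3 to -0.63 for Tob1), while Cnot7 and Cnot8 stayed within -0.15 and 0.11 in all libraries.

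Immediate early genes, which are switched on within minutes by stimuli that include tissue dissociation, had the same lowest DR library. The list summed here held 15 immediate early and dissociation genes, with the heat shock genes Hspa1a and Hspa1b among them. Their summed level was 87229, 51092, 79942 and 81690 CPM in DR replicates 1 to 4, against 55374, 61515, 66527, 94138 and 87677 CPM in AL replicates 1 to 5. DR replicate 2 was lowest in DR, and AL replicates 4 and 5 were highest in AL. DR replicate 1 had the highest sum in DR, as for Tob1 but for none of the other 4 genes. Between the diets, 1 of the 15 passed (6.67%, against 40.7% of all tested genes), the orphan receptor gene Nr4a1, which fell by 0.75 on the log2 scale (edgeR adjusted p = 0.040), and the median of the list was 0.19. That call was lost without any 1 of 7 libraries (all but AL replicates 1 and 2; edgeR adjusted p 0.051 to 0.089) and in limma-voom with quality weights. The count of the list higher in DR, 0, became 3 without DR replicate 2, 2 with limma-voom quality weights or the replicate block, and 1 with library size only, with DESeq2's Wald test, or without AL replicate 4 or 5. The part of these genes in the spread of Btg and Tob levels was not tested.

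Division genes had another order of libraries. Their summed level over 10 genes, Mki67 among them, was 14.1, 37.7, 22.1 and 27.5 CPM in DR replicates 1 to 4, against 386, 697, 362, 685 and 94.8 CPM in AL replicates 1 to 5. All 10 were lower in DR, against 21.7% of all tested genes, with a median log2 fold change of -4.26. Mki67, the Ki-67 proliferation marker, averaged 10.2 ± 3.93 CPM in DR and 164.5 ± 92.7 CPM in AL (edgeR adjusted p = 2.7e-04). DR replicate 2, lowest of DR for the 5 BTG and Tob genes, was highest of DR for division genes, and AL replicate 5, highest of AL for Btg1, Btg2 and Tob1, was lowest of AL for them. AL replicate 4, however, was high for both. Ccnd1, the cyclin D1 gene that BTG2 and Tob proteins are known to repress, fell to 31.9 ± 4.67 CPM in DR, against 102 ± 15.6 CPM in AL (log2 fold change -1.68, edgeR adjusted p = 1.6e-05). The part of the family in this fall was not tested.

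Ratios of paralogs within a library do not depend on how libraries are scaled, and 3 were compared after the values had been seen. Tob1 had 4.50, 2.97, 2.65 and 4.24 reads per Tob2 read in DR replicates 1 to 4, against 1.99, 1.81, 1.97, 2.02 and 2.89 in AL replicates 1 to 5. The groups overlapped in 1 library each, DR replicate 3 and AL replicate 5. The log2 ratio was higher in DR by 0.73 (exact two-sided permutation test over 126 splits, p = 0.024, adjusted over the 3 ratios p = 0.063), so it did not pass the adjustment. Btg1 had 0.0978 ± 0.0174 reads per Btg2 read in DR and 0.117 ± 0.0100 in AL, a log2 difference of -0.27 (exact permutation p = 0.048, adjusted p = 0.063). Cnot8 had 0.762 ± 0.0806 reads per Cnot7 read in DR and 0.639 ± 0.0792 in AL, a log2 difference of 0.26 (exact permutation p = 0.063, adjusted p = 0.063).

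**Figure D3:**
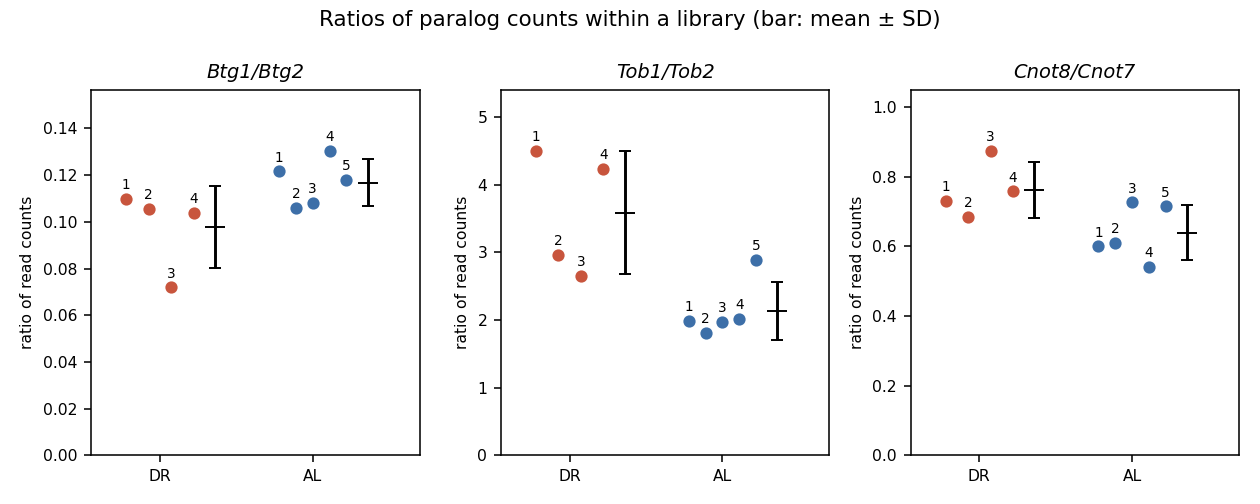
Read count ratios of 3 paralog pairs within each library (linear axes from 0), DR left and AL right, with replicate numbers and the mean ± SD (n = 4 and 5). For Tob1/Tob2 the DR libraries run from 2.65 to 4.50 and 4 of the 5 AL libraries lie between 1.81 and 2.02.

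Around the family, 4 lists of deadenylation and decay genes had 38.5% to 50.0% of their tested members called in either direction, beside 40.7% of all tested genes. In each of these lists more genes rose than fell, while 19.0% of all tested genes were higher in DR and 21.7% lower. Of the 10 other CCR4-NOT genes, 5 rose and 0 fell, with a median log2 fold change of 0.18, beside -0.02 for all tested genes. Those that rose were Cnot6 and Cnot6l, which encode the CCR4-type deadenylases of the complex, Cnot1, its scaffold, Cnot4, its ubiquitin ligase, and Cnot11 (listed as D1Bwg0212e). Cnot6 reached 176 ± 12.8 CPM in DR, against 134 ± 9.29 CPM in AL (log2 fold change 0.39, edgeR adjusted p = 0.0041), Cnot6l changed by 0.38 and Cnot11 by 0.52. With upper-quartile scaling 3 rose and 1 fell. With library size only, with the replicate block or without DR replicate 4, 3 rose. Without DR replicate 2 or without AL replicate 3, 4 rose.

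The second deadenylase, PAN2-PAN3, which trims long tails first, was higher in both subunits: Pan2 reached 149 ± 18.9 CPM in DR, against 99.9 ± 9.76 CPM in AL (log2 fold change 0.58, edgeR adjusted p = 0.0015), and Pan3 changed by 0.45. In that list of 13 other poly(A) nucleases and poly(A)-binding proteins, 4 rose and 1 fell, with a median of 0.15. Paip2, which encodes an inhibitor of the poly(A)-binding protein, rose by 0.35, and Angel2 rose by 0.30 and Angel1 fell by 0.57 on the log2 scale. The call of Angel2 was lost with upper-quartile scaling, with library size only and without DR replicate 1 or 2 or AL replicate 3 or 4 (adjusted p 0.056 to 0.12). The call of Angel1 was lost in limma-voom and without DR replicate 3 or 4 or AL replicate 1, 3 or 5. Pabpc1, the main cytoplasmic poly(A)-binding protein gene, missed the threshold at a log2 fold change of -0.16 (edgeR adjusted p = 0.40).

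Of 17 tested genes for proteins that bring the complex to messenger RNAs, 7 rose and 1 fell, with a median of 0.19. Among all tested genes 19.0% were higher in DR and 21.7% lower. In the alternative fits described below, 5 to 7 genes of this list rose and 1 fell. Tnrc6a, the GW182 protein of microRNA silencing, rose most, to 322 ± 37.6 CPM in DR against 128 ± 13.5 CPM in AL (log2 fold change 1.33, edgeR adjusted p = 1.9e-05). Its paralog Tnrc6c fell by 0.47 (232 ± 10.9 CPM in DR, 321 ± 49.2 CPM in AL). Cpeb3 rose by 1.26, the AU-rich element binder Zfp36l2 by 0.69 and Pum2 by 0.39, while Zfp36, another AU-rich element binder, had 5607 ± 1182 CPM in DR and 5479 ± 1166 CPM in AL (log2 fold change 0.03, edgeR adjusted p = 0.92). In the decapping and 5′ decay list 5 of 10 rose and 0 fell, with a median of 0.30. In the alternative fits 4 or 5 genes of that list rose and 0 or 1 fell. Its members with the smallest p were Edc4 (0.61), the helicase gene Ddx6 (0.47), the exonuclease gene Xrn1 (0.43) and Eif4enif1 (0.34).

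**Figure D4:**
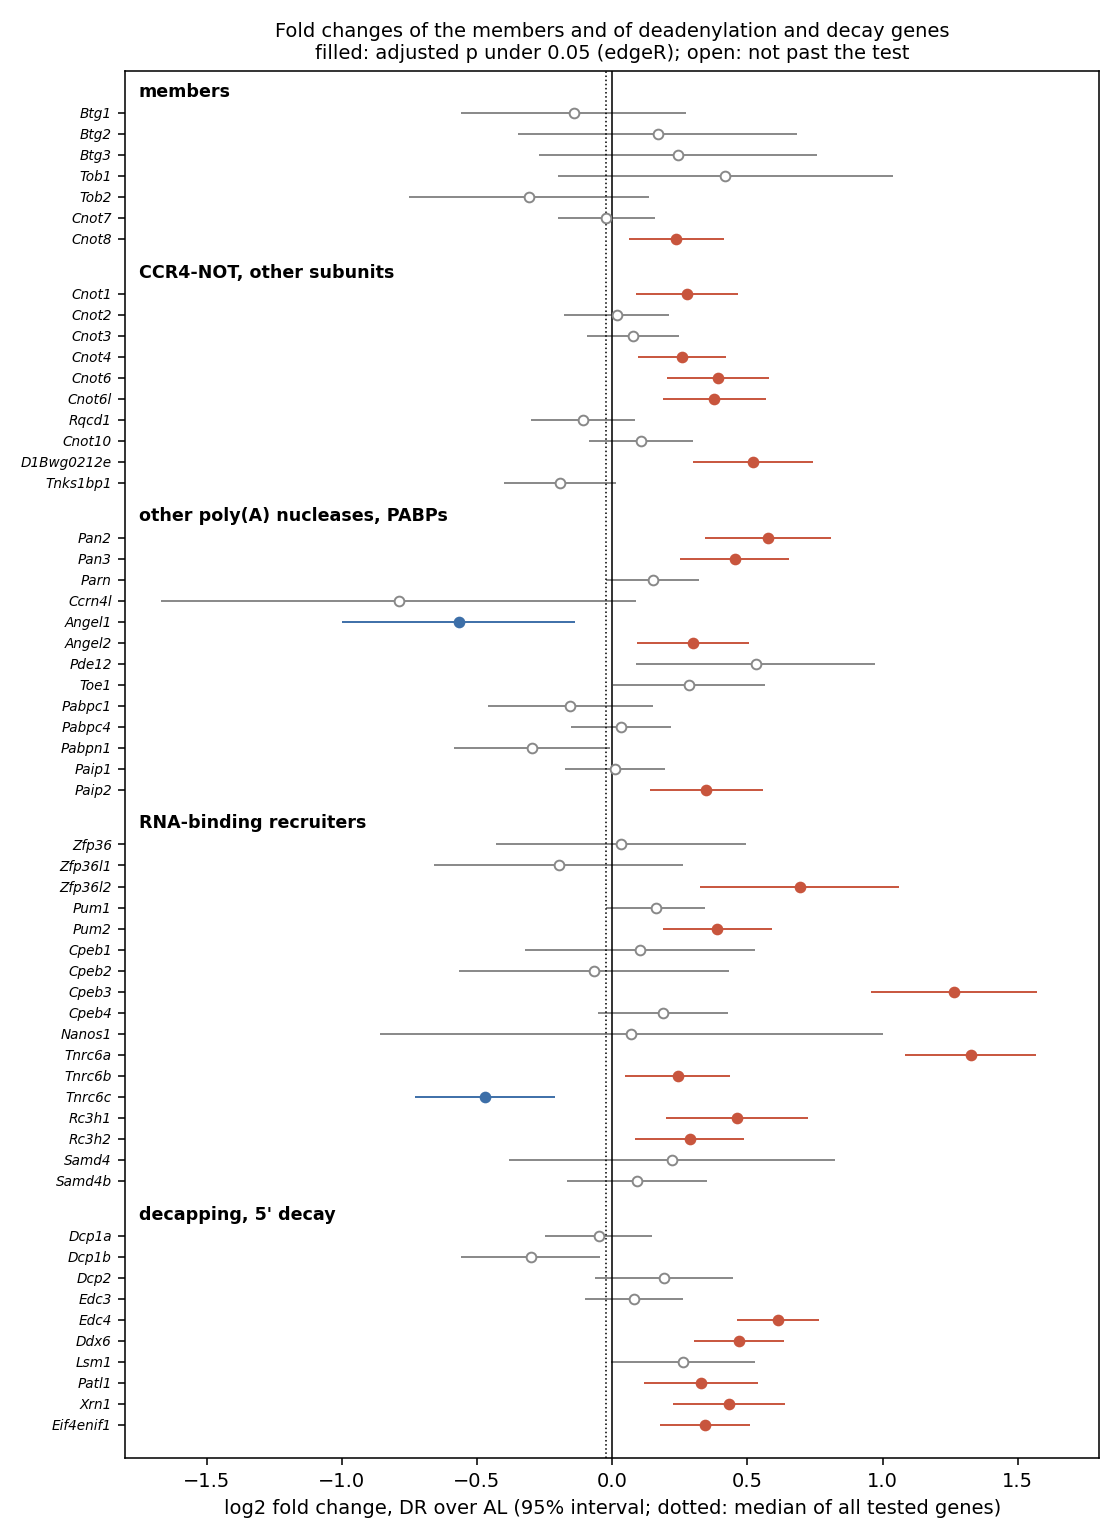
Log2 fold changes of DR over AL with 95% intervals for the 7 genes and 4 lists of deadenylation and decay genes, where filled points passed the test (red higher, blue lower in DR) and the dotted line is the median of all tested genes. Of the 7 genes Cnot8 alone is filled, while Tnrc6a (1.33) and Cpeb3 (1.26) lie farthest to the right.

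Among 17 known partners and upstream factors of the family, 6 rose and 6 fell (70.6% called, against 40.7% of all tested genes), with a median of -0.02, as over all tested genes. Besides the FoxO genes, Rb1 rose by 0.36, Smad9 by 0.66 and Erbb2 by 0.24 (edgeR adjusted p = 0.047 for Erbb2, whose diets overlapped). Besides Ccnd1 and Trp53, Prmt1, the arginine methyltransferase that binds BTG1 and BTG2, fell by 0.56 (59.9 ± 5.59 CPM in DR, 88.0 ± 15.4 CPM in AL, edgeR adjusted p = 0.0060), with Hoxb9 (-0.35), Nr3c1 (-0.38) and Rps6ka1 (-0.29). Without DR replicate 2, 3 or 4 or AL replicate 4, 3 of the 17 fell. Over the alternative fits 4 to 7 of the 17 rose.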

How the data were processed

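The authors deposited raw read counts per gene symbol, 1 file per library, from single reads of 51 cycles. HTSeq 0.11.2, TopHat2 2.1.0, Bowtie, FastQC 0.11.5 and the mm9 build are named by the submitters' processing notes; the sources used here state neither the annotation nor a strand setting, and the library kit does not mark strand. The 6 lines per file that name no gene held 25.9% to 30.7% of reads and were left out; reads aligned to several places have their own such line. Genes were filtered with filterByExpr, scaled by TMM and tested with edgeR 4.0.16 (quasi-likelihood, R 4.3.3) on diet alone. Intervals are at 95%, from the standard error implied by the F statistic. Counts simulated for the 15447 tested genes, with known folds, gave 29.9% recovery at 1.5-fold, 60.9% at 2-fold and 96.9% at 4-fold for this comparison, with 6.77% of the calls false.

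Alternatives were DESeq2 1.42.0 size factors and Wald test, upper-quartile scaling, library size only, other filters, limma-voom (limma 3.58.1) with and without quality weights, a replicate block, and each library left out. The members and lists were chosen with earlier results of these data known. Beside the 7 members the text was to name up to 4 called genes of each list with the smallest p, 5 further genes and Btg4, and, for each BTG or Tob gene past the test, the genes most like it. None passed, so none is named; other list genes were picked after their values were seen. Symbols were matched with a RefSeq table of GRCm38.p6, used for names and promoter sequence; 3 of 155 were found under older symbols. Exon lengths and shared 51-base stretches come from GENCODE M21 (GRCm38), not the authors' annotation. Within a diet no 2 libraries were copies (chi-square per degree of freedom 26.4 to 118).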

Additional observations from a re-analysis of the deposited data

Results flagged for a closer look

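Foxo4, a FoxO factor gene, stood apart in 1 of the 66 groups of values checked (33 genes in 2 diets): AL replicate 5 had 83.7 CPM, against 58.2 to 65.1 CPM in the other AL libraries. Chance flags about 1 in 20 groups.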

How the results depend on the processing

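The count of members higher in DR was 0 in place of 1 with upper-quartile scaling, library size only, no low-count filter and the replicate block, and 0 to 1 when a single library was left out; in all, 9 of 18 alternatives gave 0, and the adjusted p of Cnot8 ranged from 0.015 to 0.19. No alternative gave a member lower in DR. Genes higher in DR numbered 2275 to 3271 and lower 2674 to 3821. The sign of Btg2 turned without DR replicate 3 (-0.027), and that of Cnot7 without DR replicate 3 (0.025) or AL replicate 2 (0.017); the causes were not tested. With 1 library left out, Btg2 ranged from -0.027 to 0.32 and Cnot7 from -0.0619 to 0.0253. Over 33 single genes and 594 refits, 558 kept direction and side of the threshold and 33 lost the call. Replicate numbers were not taken to pair libraries, since the same-number correlation of deviations was not above 0.1 in every pair (r -0.18 to 0.36; 2 of 4 DR libraries were closest to their own number). The fit with the replicate block gave Tob1 0.59 (edgeR adjusted p = 0.051) and Cnot8 0.26 (0.055). With 1 library left out, chosen after seeing the data, the Tob1/Tob2 difference was 0.61 to 0.87, Btg1/Btg2 -0.34 to -0.13 and Cnot8/Cnot7 0.19 to 0.31, and none passed the adjustment. Intervals and detection limits cover counting error or these libraries only. In the simulation, with far fewer genes changed than were called here, most 1.5-fold changes and many 2-fold changes were missed. The share missed in the real comparison was not measured.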
